A study of Homo sapiens with 10 samples.

Results

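The regions described here are 15075 narrow peaks of FLAG-tagged ZMYND8 that lay in introns of protein-coding genes with few other peaks and that were not in the list of the antibody to ZMYND8. They make up 23.7% of the 63690 peaks in the FLAG-ZMYND8 list and 17.9% of the length it covers, 2992.6 kb in all. ZMYND8 and FLAG-ZMYND8 ChIP-seq was carried out in HEK293, an established human embryonic kidney cell line, with 2 samples for each target. The other 6 of the 10 samples, H3K14ac, H3K27ac and input DNA, were not analysed here. In the FLAG-ZMYND8 group, Flp-In T-REx HEK293 cells expressed full-length ZMYND8 with a 3xFLAG tag from an inducible transgene, which was switched on with 10 nM doxycycline, and chromatin was precipitated with anti-FLAG. For the ZMYND8 group the labels describe cells carrying the tagged protein as WT or as the N228F mutant without saying which, and the antibody was directed at ZMYND8 itself. The 2 groups differ in the antibody and may differ in the form and level of the protein, which cannot be told apart. Crosslinked chromatin was digested with micrococcal nuclease in both. Each target has 1 deposited peak list, in which neither replicates nor reads are recorded, and depth and replicate spread are therefore not known. The 95% intervals below cover counting error of peaks alone, and neighbouring peaks are not independent.

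A peak was a member when it was narrower than 1000 bp, overlapped none of the 15086 peaks in the ZMYND8 list, had its midpoint more than 3 kb from every gene start (TSS), lay inside a protein-coding gene but in no exon, and lay in no protein-coding gene whose body held 15 or more FLAG-ZMYND8 midpoints. Chromosomes 1 to 22 and X were used, with positions in GRCh37 (hg19). Of the 63690 peaks, 63688 were on these chromosomes, 62541 were narrow, 56301 of those were absent from the ZMYND8 list, and 35749 were also far from TSSs. Protein-coding genes held 24416 of the latter and 21014 lay outside exons. The limit on peaks per gene then removed 5939. The nearest members lay 3001 bp from a TSS and the nearest peaks outside lay at 3000 bp. The widest member measured 981 bp against 1001 bp for the narrowest peak excluded by width. There were 53 genes with 14 FLAG-ZMYND8 midpoints and 56 genes with 15. The members were thus chosen by widths, positions and counts in the FLAG-ZMYND8 list and by the absence of an overlap with the ZMYND8 list, and values of these are given as a description.

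ZMYND8 is a chromatin reader whose PHD finger, bromodomain and PWWP domain sit side by side and recognise modified histone tails and DNA. Introns, the first intron above all, hold many of the enhancers that control the gene around them or its neighbours. Much of the intronic sequence in human genes derives from transposable elements, of which Alu, a short element rich in GC and CpG, is the most numerous.

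From the 5th to the 95th percentile, the members' GC content in 200 bp around the midpoint ran from 48.5 to 66%. The 2 members shown next come from the ends of the range, among members of at most 300 bp, and are not typical. They are printed from GRCh37 on the plus strand, with each CpG in capitals, and their GC contents are over the whole peak. The first, in CACNA1C, which encodes an L-type calcium channel subunit, has the most CpGs of these (chr12:2161980-2162146, 86.2% GC, 35 CpG) and lay 90 bp from an annotated transcript start. The other, in intron 12 of SYNJ1, which encodes a phosphoinositide phosphatase of synaptic vesicle recycling, has the lowest GC content of these (chr21:34049387-34049553, 35.9% GC) and no CpG.
CACNA1C: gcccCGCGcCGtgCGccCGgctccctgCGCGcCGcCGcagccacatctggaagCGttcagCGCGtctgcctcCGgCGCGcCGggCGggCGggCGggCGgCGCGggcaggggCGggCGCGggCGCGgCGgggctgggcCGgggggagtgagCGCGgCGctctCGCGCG
SYNJ1: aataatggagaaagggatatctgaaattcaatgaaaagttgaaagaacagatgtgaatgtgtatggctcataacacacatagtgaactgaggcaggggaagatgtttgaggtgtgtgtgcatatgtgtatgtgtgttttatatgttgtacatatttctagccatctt

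Another 2 show what stood at the centre of single members in a gene with many members and in a gene with a very wide one. Capitals mark the letters of a searched motif nearest to the midpoint. The member in intron 2 of BCL11A, a zinc finger repressor of fetal globin genes (chr2:60707189-60707355), carries CCCTC on the minus strand, a part of the CTCF site. A member in TBCA, a tubulin folding cofactor (chr5:77147241-77147534), holds 30 CpGs and a GC box, GGGCGG.
BCL11A: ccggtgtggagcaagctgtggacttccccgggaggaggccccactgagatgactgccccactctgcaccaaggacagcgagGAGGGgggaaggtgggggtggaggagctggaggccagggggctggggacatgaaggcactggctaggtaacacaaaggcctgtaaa
TBCA: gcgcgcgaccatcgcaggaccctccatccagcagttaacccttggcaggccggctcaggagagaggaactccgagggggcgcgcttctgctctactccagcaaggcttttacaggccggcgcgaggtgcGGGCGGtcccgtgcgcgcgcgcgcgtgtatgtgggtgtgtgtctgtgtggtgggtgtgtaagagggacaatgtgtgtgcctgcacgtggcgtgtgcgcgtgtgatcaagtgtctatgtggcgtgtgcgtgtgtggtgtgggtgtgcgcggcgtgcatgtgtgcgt

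The members were small and richer in G and C than introns usually are. Their median width was 167 bp, which is also the minimum of the list, and 10550 members, or 69.98% (95% Wilson interval 69.2 to 70.7%), had exactly that width. Their median GC content in 200 bp around the midpoint was 56.0%, with quartiles of 53.0 and 59.5%, and 90.0% of them exceeded 50%. For comparison, positions were taken every 1 kb along the genome and kept where they met the rule on TSSs, genes, exons and peaks per gene. These 982658 eligible intronic positions had a median GC content of 40%, and 16.2% of them exceeded 50%. The members' windows held 5.36 CpGs on average against 1.87 at eligible positions. At least 10 CpGs were found in 12.4% of members and in 1.18% of eligible positions.

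**Figure D1:**
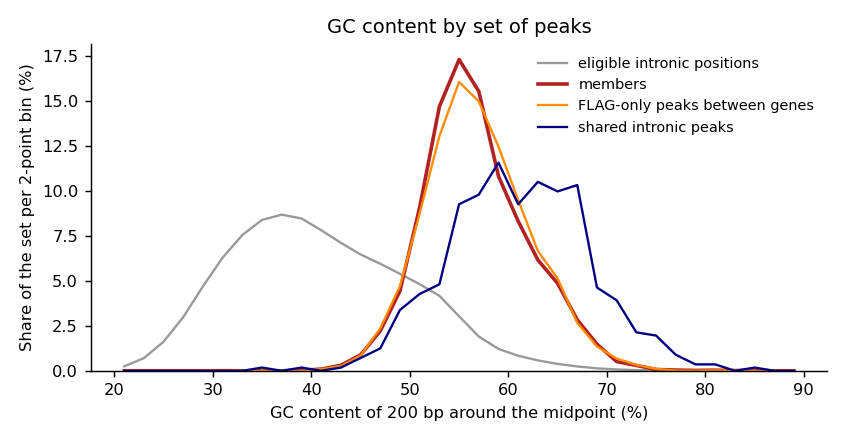
Share of each set (%) per 2-point bin of GC content in 200 bp around the midpoint, for members, eligible intronic positions, FLAG-only peaks between genes and intronic peaks shared with the ZMYND8 list. The curve of the members lies to the right of the eligible positions (medians 56.0 and 40%) and nearly on that of the peaks between genes (56.5%), and the shared peaks lie farther right (60.5%).

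The GC content was highest at the centre of the members. It was 57.1% in the first 50 bp to the right of the midpoint, 51.7% from 100 to 150 bp, 47.6% from 150 to 200 bp and 46.5% from 200 to 250 bp, and it stayed near that level out to 1000 bp, above the 40% median of eligible positions. A window of 500 bp therefore gave a median of 50.6% in place of 56.0%. Members per 1000 eligible positions rose from 0.581 (95% counting interval 0.475 to 0.704) at a GC content of 40 to under 45% to 7.66 at 45 to under 50%, 46.6 at 50 to under 55%, 120.2 at 55 to under 60% and 186 (174 to 197) at 65 to under 70%. At 70% or more the density was lower, 80.4 (68.0 to 94.3), from 150 members. From 35 to under 40% there were 4 members on 210081 positions, and below 35% there was 1 on 279296. Whether digestion with micrococcal nuclease, amplification, mapping or input coverage moved with GC content was not tested, as the lists hold no reads.

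**Figure D2:**
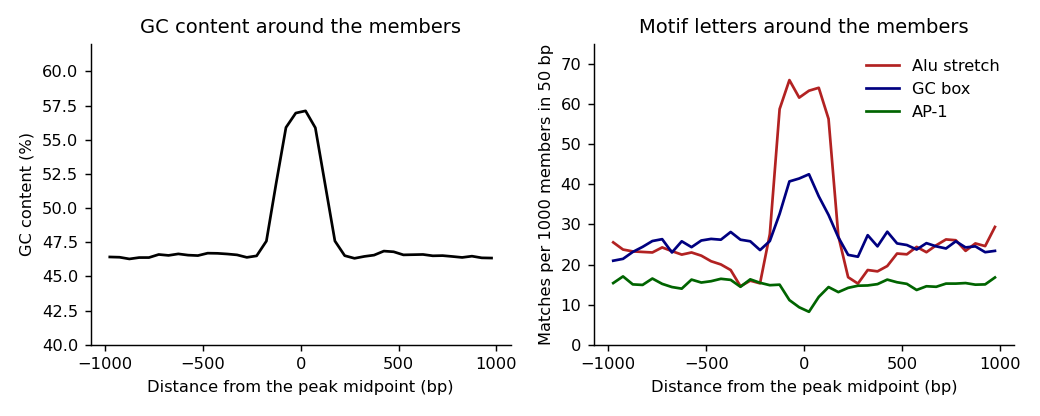
Mean GC content (%, left) and matches of 3 motifs per 1000 members in 50 bp bins (right) against the distance from the peak midpoint (bp) over the 15075 members. GC content, the Alu stretch and the GC box rise within about 150 bp of the midpoint, the Alu stretch to 66.0 matches, while AP-1 letters fall to 8.23 matches.

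Alu letters were common at the centre. Exact matches on either strand to GGATTACAG or GCTCACGCC, conserved stretches of the Alu repeat, were present in 3406 members, or 22.6% (21.9 to 23.3%), against 7.31% of eligible positions and 14.8% of positions weighted to the members' GC content. The first of these stretches occurred 66.0 times per 1000 members between 50 and 100 bp to the left of the midpoint and 15.3 times between 200 and 250 bp. It rose again farther out, with a mean of 24.2 per 50 bp from 500 to 1000 bp on both sides. The mean within 100 bp of the midpoint was 63.8. Within a range of GC content, positions with Alu letters held more members than positions without, at 71.0 (67.8 to 74.3) against 38.4 (37.0 to 39.8) per 1000 from 50 to under 55% and 188 (177 to 199) against 109 (105 to 112) from 55 to under 60%. Exact letters find only those copies that kept them. The members with Alu letters had more CpGs (median 6 against 4), a lower GC content (median 54.0 against 57.0%) and fewer FLAG-ZMYND8 neighbours within 5 kb (44.1 against 52.0%) than the others, but a similar share in the first intron (39.4 against 37.6%). How reads that match many repeats were treated is not given in the sources used here, and its part in these values was not tested.

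Most motif letters followed the GC content. GATA letters (AGATAA), bound by GATA factors, were present in 2.91% of members against 14.8% of eligible positions, but the share at GC-weighted positions was 3.65%. Homeodomain letters (TAATTA) gave 0.876, 8.67 and 1.06% in the same order. ETS letters (CCGGAAG) gave 1.23, 0.389 and 1.24%. The GC box GGGCGG, the site of SP and KLF factors, was found in 13.9% of members, 2.59% of eligible positions and 11.4% of GC-weighted positions, and 27.9% of the members that held it also held Alu letters. Without Alu letters it was found in 12.9% of members and 11.2% of GC-weighted positions. NRF1 letters (GCGCATGC) were found in 222 members, or 1.47%, against 1.01% of GC-weighted positions, and 57.7% of these members also held Alu letters. Without Alu letters the NRF1 shares were 0.806 and 0.550%. AP-1 letters, the site of FOS and JUN dimers, were found in 3.73% of members against 4.15% of GC-weighted positions. CTCF core letters (CCCTC) were found in 46.9% of members against 52.7%, and NF-Y letters (CCAAT) in 13.7% against 15.4%. Without Alu letters the shares were 56.8 against 59.9% for CTCF core letters and 14.6 against 15.9% for NF-Y letters. All motifs were searched on both strands, and a match is a description of the letters and not of binding.

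Members were denser in the first intron than in later ones. Of the 13529 members inside an intron of a canonical transcript, 5138 or 38.0% (37.2 to 38.8%) lay in the first, against 22.5% of eligible positions and 23.5% of GC-weighted positions. The density fell from 26.4 (25.7 to 27.1) members per 1000 eligible positions in intron 1 to 17.4 in intron 2, 13.6 in intron 3, 12.6 in intron 4 and 10.5 (10.2 to 10.8) in intron 5 and later. It also fell with distance from the nearest TSS, from 32.0 between 3 and 5 kb to 13.0 between 20 and 50 kb and 3.04 beyond 100 kb. The order of first and later introns held at each distance from the gene's own TSS, with 46.5 against 32.9 from 3 to 10 kb, 35.3 against 25.5 from 10 to 20 kb, 27.5 against 19.5 from 20 to 50 kb and 11.3 against 7.88 farther out. It also held at equal GC content, with 79.5 (75.9 to 83.3) against 37.7 (36.3 to 39.2) from 50 to under 55% and 241 (224 to 258) against 133 (126 to 140) from 60 to under 65%. Members lay within 500 bp of a splice site in 15.8% of cases, above the 11.4% of eligible positions and below the 20.3% of GC-weighted positions. The last intron held 6.76% against 7.03 and 9.07%.

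**Figure D3:**
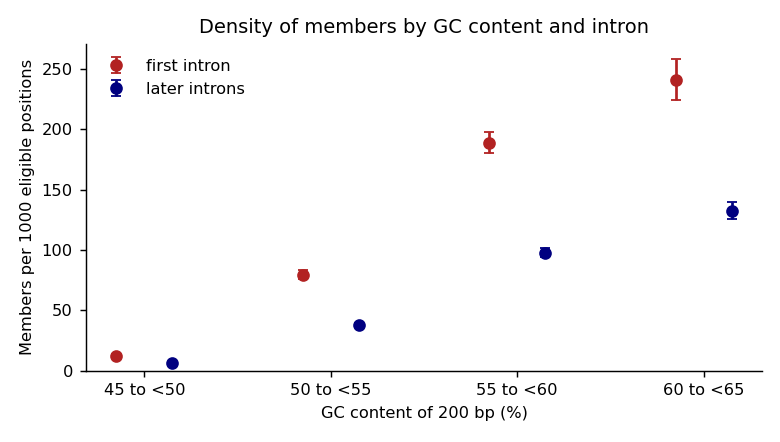
Members per 1000 eligible intronic positions in first and later introns, by GC content of 200 bp (%). Bars are 95% counting intervals, and the first intron lies above the later ones in all 4 ranges, with 12.7 against 6.43 at the lowest and 241 against 133 at the highest.

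Gene starts do not cover all starts of transcription. By the starts of all annotated transcripts, 4375 members, or 29.0% (28.3 to 29.8%), lay within 3 kb of one, against 13.97% of eligible positions, which is 31.9 against 12.7 members per 1000 positions near and far from such starts. The 4375 members near a transcript start more often held at least 10 CpGs (18.5 against 9.91%), had a ZMYND8 midpoint within 5 kb (27.1 against 12.8%) and had a FLAG-ZMYND8 neighbour within 5 kb (63.0 against 44.97%). They less often held Alu letters, with 16.5% (15.5 to 17.7%) against 25.1% (24.3 to 25.9%). The CACNA1C sequence above belongs to this group.

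Members lay nearer to other peaks than intronic positions did. Another FLAG-ZMYND8 peak had its midpoint within 5 kb of 50.2% (49.4 to 51.0%) of members, 13.2% of eligible positions and 27.9% of GC-weighted positions. A midpoint of the ZMYND8 list lay within 5 kb of 16.9% (16.4 to 17.6%), 3.60% and 8.25%, respectively. The sets of similar FLAG-ZMYND8 peaks described below had such neighbours more often than members. A FLAG-ZMYND8 neighbour was found for 53.7% (52.6 to 54.7%) of FLAG-only peaks between genes and 72.6% of those in introns of densely bound genes. For intronic peaks shared with the ZMYND8 list it was 74.9%. A ZMYND8 midpoint lay within 5 kb of 21.9% of FLAG-only peaks between genes and 24.2% of those in densely bound genes. The median distance to the nearest ZMYND8 midpoint was 25562 bp for members and 94504 bp for eligible positions, and 16.0% of members had none within 100 kb. Joined wherever gaps were at most 5 kb, the members formed 11524 runs, of which 9163 consisted of a single member, and 742 runs of 3 or more held 17.7% of members. The runs with the most members had 9, one over 13657 bp at TRIB3, a pseudokinase of the stress response, and one over 22587 bp at SP1, which encodes the GC box factor. At THRA, a thyroid hormone receptor, 8 members lay within 5207 bp, none with Alu letters.

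Wider members differed from minimal ones in position and sequence. From the minimum width over the classes up to 250 bp, over 250 to 500 bp and over 500 bp, the share in the first intron was 35.6, 40.7, 47.7 and 51.6%. The share with a ZMYND8 midpoint within 5 kb was 14.2, 18.6, 28.7 and 39.1%, where the rule had removed peaks that overlap the ZMYND8 list, and that with at least 10 CpGs was 10.6, 13.4, 19.8 and 30.0%. Alu letters were found in 23.4, 24.8, 16.6 and 4.72%. The classes held 10550, 2638, 1654 and 233 members. The interval of Alu letters in the widest class was 2.66 to 8.25%, below that of the minimal class, 22.6 to 24.2%.

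The 8 widest members lay in genes of varied function, and 4 of them lay 440 bp or less from an annotated transcript start. The widest, 981 bp, lay in SNRNP200, a helicase of the spliceosome (chr2:96970997-96971977), 203 bp from a transcript start. A member of 974 bp lay in intron 2 of ZIC2, a zinc finger factor of brain development (chr13:100637042-100638015), with a GC content of 72.0% around its midpoint. FOXP4, a forkhead factor, held one of 976 bp in intron 3 (chr6:41545755-41546730), 61780 bp from the nearest ZMYND8 midpoint. LDB3 held one of 971 bp, TBCA one of 966 bp, TRAF3IP2 one of 948 bp and NPLOC4 one of 939 bp. None of the 8 held Alu letters.

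The sets most like the members differed from them in part. FLAG-only intronic peaks of densely bound genes, 5939 in number, had nearly the same median GC content (55.5%) and share in the first intron (35.9%), but fewer of them held Alu letters (16.0%, 15.1 to 17.0%) and fewer had the minimum width (59.5%). FLAG-only peaks between genes, 8530 in number, were near the members in GC content (56.5%), in Alu letters (19.2%) and in minimum width (68.2%). Intronic peaks of sparsely bound genes that were shared with the ZMYND8 list, 562 in number, stood farther off. Of these, 54.7% (50.1 to 59.2%) lay in the first intron, 4.80% (3.32 to 6.90%) held Alu letters, 43.1% (39.0 to 47.2%) held at least 10 CpGs and 25.3% had the minimum width. Absence from the ZMYND8 list chose the members, and the ZMYND8 list is the shorter of the 2 lists.

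The members were spread over 6101 of 20098 protein-coding genes, 30.4%, each member being assigned to 1 gene. A single member was held by 2809 genes, or 46.0% of the host genes, and the median was 2. Genes with 5 or more, 862 in number, held 38.5% of all members. The rule limits a gene to 14 FLAG-ZMYND8 midpoints, and the highest number of members was 13. Host genes were long, with a median length of 61.1 kb against 16.0 kb for sparsely bound genes without a member. Short genes have little room for a member, which must lie in an intron more than 3 kb from every TSS. Among genes with a FLAG-ZMYND8 peak at the TSS, those of 0 to 10 kb held 90.8 members per 1000 eligible positions. Those over 200 kb held 8.05. Among genes with no such peak, the values were 22.9 and 3.50. The limit of 14 midpoints allows fewer per kb in a long gene, and positions in short genes all lie near a TSS. The part of either in these values was not tested.

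The 5 genes with 13 members each were ARHGAP35, ATP11A, TNS1, VPS13D and VTI1A. ATP11A encodes a phospholipid flippase, VPS13D a lipid transfer protein and VTI1A a SNARE protein of endosome fusion. In ARHGAP35, a GTPase-activating protein, 7 of the 13 lay in intron 1, from 27.1 kb downstream of the TSS, and none was nearer than 27.5 kb to a ZMYND8 midpoint. In ATP11A, 11 lay in intron 1, from 3.85 to 82.6 kb downstream, with a median GC content of 61.5%. TNS1 encodes tensin 1, which links integrins to actin, and 7 of its 13 lay between 3.80 and 24.4 kb from the TSS, outside the introns of the canonical transcript, the nearest 374 bp from a ZMYND8 midpoint. VPS13D had its 13 in 9 of its 69 introns and none in the first, and it had no peak of either list at its TSS. In VTI1A, 8 lay in intron 7 and none in intron 1, and 5 held Alu letters. These 5 genes differ in where members lie, from the first intron in ATP11A to the last intron in VTI1A.

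**Figure D4:**
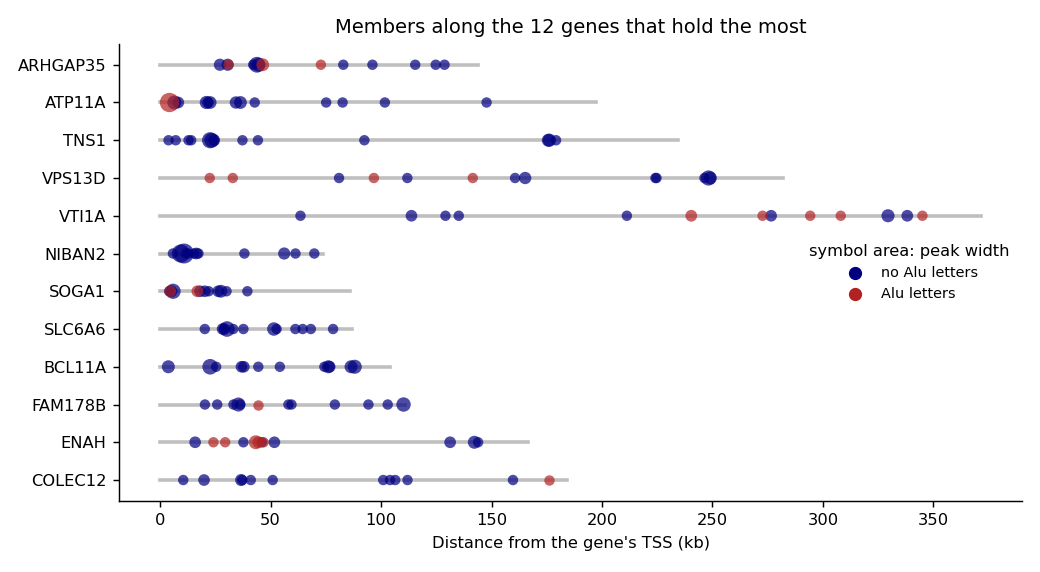
Position of each member (kb from the gene's own TSS) along 12 of the 16 genes with 12 or 13 members, taken by the number of members and then by members per 100 kb. Lines span the gene body, the area of a point is proportional to the width of the peak and red points hold Alu letters, as 5 of 13 do in VTI1A and none of 12 in NIBAN2.

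There were 11 genes with 12 members, of which NIBAN2, SOGA1, SLC6A6, BCL11A, FAM178B, ENAH and COLEC12 held the most per 100 kb of gene body. BCL11A had 9 of its 12 in intron 2, with GC contents from 53.5 to 63.5% and no Alu letters. ENAH, an actin regulator of the leading edge, had 9 in intron 1 and Alu letters in 5. SLC6A6, the taurine transporter, had none in intron 1 and its members in 6 other introns. Per length, and among genes of at least 20 kb with 5 or more members, USP2 was first. This ubiquitin protease of the circadian clock held 9 members in 26.5 kb, or 34.0 per 100 kb, all in introns 1 and 2. SAMD11 followed with 33.9 per 100 kb, then HNRNPF, an RNA-binding protein of splicing, with 29.7, ZBTB7A, a transcriptional repressor, with 29.7, and COL9A3, a cartilage collagen chain, with 28.1. All 7 members of HNRNPF lay in its first intron, between 4.50 and 11.8 kb from the TSS, with GC contents from 48.0 to 68.0%.

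Host genes more often had a peak at their own TSS than other genes. A FLAG-ZMYND8 midpoint lay within 3 kb of the TSS in 4508 host genes, or 73.9% (72.8 to 74.98%), against 50.3% (49.5 to 51.2%) of sparsely bound genes without a member and 58.1% of all protein-coding genes. A ZMYND8 midpoint lay there in 43.1% (41.9 to 44.3%) of host genes, 29.7% of those without a member and 34.1% of all. The order was the same in classes of gene length, where the FLAG-ZMYND8 share was 74.8 against 54.3% for genes of 20 to 50 kb, 74.8 against 51.1% for 100 to 200 kb and 68.9 against 41.3% for over 200 kb. Seen from the gene, eligible positions held 20.2 members per 1000 where the TSS had a FLAG-ZMYND8 peak and 8.63 where it had none. At equal GC content the values were 60.1 and 24.6 from 50 to under 55%, 148 and 75.5 from 55 to under 60%, and 185 and 122 from 60 to under 65%. The rule used both lists, so these shares are a description.

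The gene lists differed in how many of their genes held a member, beside 30.4% of all genes. In the 6 lists described first, the share lay above that of genes of the same length. Of 40 genes of integrins and focal adhesion, 28 held a member (70%, 54.6 to 81.9%) against 47.0% of genes of the same lengths, among them TNS1, ITGA8 with 10 and VCL, encoding vinculin, with 9. In the Wnt pathway, 31 of 56 held one (55.4%, 42.4 to 67.6%) against 36.6%, among them the receptor-degrading ligase ZNRF3 with 11, the co-receptor LRP6 with 10 and the scaffold AXIN1 with 9. In the TGF-beta and BMP pathway, 24 of 37 held one (64.9%, 48.8 to 78.2%) against 46.2%, with 7 each in the ligand BMP7, the receptor BMPR2 and the latent binding protein LTBP2. In the Hippo pathway, 19 of 28 held one (67.9%) against 49.5%, with 9 in the coactivator gene WWTR1, 8 in the upstream regulator NF2 and 7 in AMOTL1. Receptor tyrosine kinases gave 21 of 36 (58.3%) against 44.1%, with 10 in FLT1, 9 in MET and 6 in EGFR. Histone lysine methyltransferases gave 19 of 32 (59.4%) against 44.6%, with 9 each in NSD1, KMT2E and EHMT1. The intervals of the integrin, Wnt and TGF-beta lists lay above the share at equal length, and those of the other 3 lists contained it. The lists were chosen with earlier results of these data known, so this is a description and not a test.

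The lists given next lay near or below genes of their length. Voltage-gated ion channels, described further below, lay above by share (60%, 44.6 to 73.7%, against 49.8%). Ephrin, Robo, netrin and plexin guidance genes gave 19 of 44 (43.2%) against 43.0%, with 9 members in SLIT1, 8 in PLXND1 and 7 in SLIT2. Kidney lineage transcription factors, which are short genes, gave 6 of 30 (20%) against 21.6%, with 4 in PAX2. Of 41 synaptic adhesion genes, 12 held a member (29.3%, 17.6 to 44.5%) against 47.1%, led by PTPRF with 10 and NRXN2 with 9. Immune receptors gave 7 of 40 (17.5%, 8.75 to 31.9%) against 32.0%, with 2 members in IL2RB and 1 in IL10RA and CD8A. A FLAG-ZMYND8 peak stood at the TSS of 53 of 56 Wnt genes, 14 of 41 synaptic adhesion genes and 3 of 40 immune receptors. These shares were 94.6, 34.1 and 7.5%, against 58.1% of all protein-coding genes. In the other lists named here the share lay from 60 to 78.6%.

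**Figure D5:**
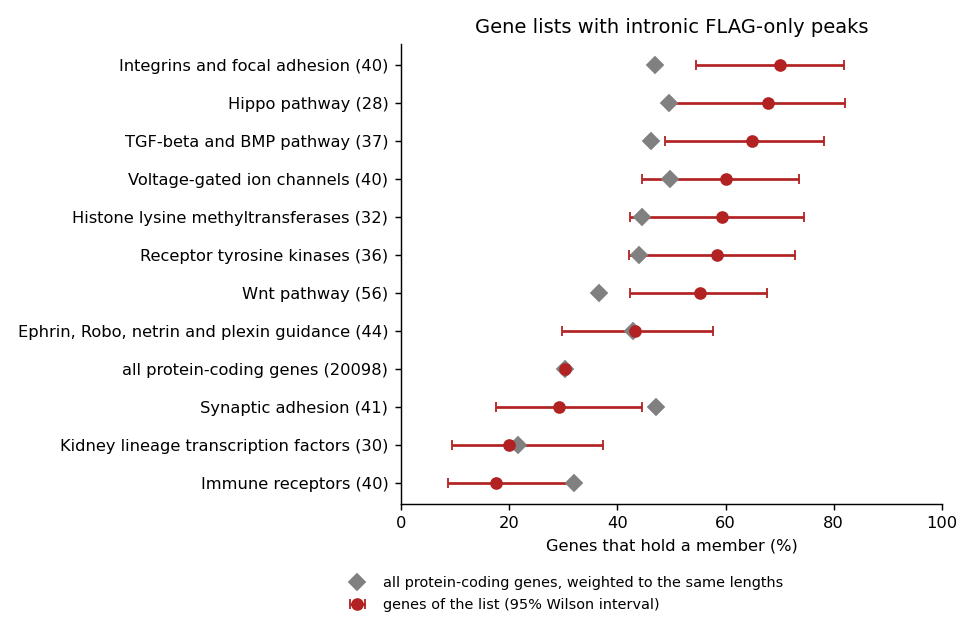
Genes that hold a member (%) in 11 lists and over all protein-coding genes, with the number of genes in brackets. Circles with bars are the lists with 95% Wilson intervals, diamonds are all protein-coding genes weighted to the same lengths, and the distance between them is widest for integrins and focal adhesion (70 against 47.0%) and on the other side for synaptic adhesion (29.3 against 47.1%).

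The number of members was also set beside the number that the GC content of each gene's eligible positions would give at the density of all members. Wnt genes held 117 members against 66.8, TGF-beta and BMP genes 71 against 35.1, Hippo genes 68 against 34.6 and histone lysine methyltransferases 92 against 49.4. Receptor tyrosine kinases held 58 against 70.5, although more of these genes than at equal length held a member, and guidance genes held 74 against 83.9. Synaptic adhesion genes held 51 against 168, kidney lineage transcription factors 13 against 14.4, immune receptors 8 against 16.8 and voltage-gated ion channels 86 against 172. Ion channels likewise lay below by number, although 24 of 40 held a member (60% against 49.8% at equal length), with 12 in CACNA2D3, 11 in CACNA1C and 7 in CACNA2D2. Integrin and focal adhesion genes held 109 against 93.4. The numbers from GC content take no account of gene length or of distance from a TSS, and density fell with that distance. The median gene length was 545 kb for synaptic adhesion genes and 235 kb for ion channels, against 55.3 kb for Wnt genes. Receptor tyrosine kinases (68.8 kb) and immune receptors (27.5 kb) also lay below by number. The part of length in these values was not tested. Genes over the limit of 15 midpoints hold no member by the rule, which concerns 8 guidance genes, 7 Wnt genes and from 0 to 4 genes of each other list named here.

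The longest genes held few members for their GC content. Of the 40 longest sparsely bound genes, all over 1216 kb, 25 held none, and together they held 48 against 287 from the GC content of their eligible positions. RBFOX1, a splicing factor of neurons and muscle that spans 2473540 bp, held none against 24.6 and had no FLAG-ZMYND8 peak anywhere in its body. DLG2, a postsynaptic scaffold, held none against 8.07, although it had a FLAG-ZMYND8 peak at its TSS. PRKG1, a cyclic GMP kinase, held the most of the 40, with 8, which lay above the 4.74 from its GC content. Among the 275 sparsely bound genes over 500 kb, 130 held no member and 126 had a FLAG-ZMYND8 peak at the TSS. Most of these 275 genes thus held a member. Over all protein-coding genes, 30.4% held a member and 58.1% had a FLAG-ZMYND8 peak at the TSS.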

How the data were processed

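ChIP-seq of ZMYND8 and of FLAG-ZMYND8 was analysed from 1 peak list per target. The authors aligned reads to hg19 using BWA-MEM and made genome profiles using HOMER. The peak caller's settings, the use of input and the way replicates were combined are not given in the sources used here. Each list has 6 columns and no header. Its coordinates are positions in base pairs as deposited by the authors, and the score column deposited by the authors holds 1 in every row, so it ranks nothing and width took its place. No columns of the lists hold single samples. Input DNA and the samples of H3K14ac and H3K27ac were not used here.

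Peaks were placed with GENCODE release 44 on GRCh37, the build of hg19, with 20098 protein-coding genes on chromosomes 1 to 22 and X. Each member was assigned to the shortest protein-coding gene with an intron of the canonical transcript over its midpoint, otherwise to the shortest gene that contains it. Eligible intronic positions were taken every 1000 bp, and 1951 with unknown bases were dropped. GC content, CpGs and 19 motifs were counted in 200 bp around the midpoint from the GRCh37 sequence, and shares at eligible positions were also weighted to the members' GC content in bins of 2 percentage points. Shares have 95% Wilson intervals, medians order-statistic intervals and densities Poisson counting intervals. No test was made, because each target has 1 list and peaks are not replicates. The depth is unknown.

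The members, the gene lists and the motifs were chosen with earlier results of these data known. Genes were named by a rule: the 12 with the most members (ties by more members per 100 kb), the hosts of the 8 widest members, the 3 with the most members in each of 12 lists, and the 5 with the most members per 100 kb among genes of at least 20 kb with at least 5. Other genes were named after their values were seen, which concerns the runs and the longest genes. Some members, genes and 1 gene list that these rules select are not reported here. All 12 lists matched the annotation in full. Alternatives changed the TSS definition and distance, the limit on peaks per gene, the width, the overlap with the ZMYND8 list, the exons and the GC window. The functions that place peaks were tested on simulated lists. The tools were Python 3.11.15, matplotlib 3.10.9, scipy 1.17.1, pandas 2.3.3 and numpy 2.4.6.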

Additional observations from a re-analysis of the deposited data

How the results depend on the processing

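The share of host genes with a FLAG-ZMYND8 peak at the TSS lay between 72.9 and 75.7% under every alternative run. With transcript starts as TSSs, 10700 members remained, 39.5% in the first intron, with a median GC content of 55.5%, 44.97% with a FLAG-ZMYND8 neighbour within 5 kb and 72.4% of minimum width. Over 10 kb from every TSS, the values were 9344 members, 32.2, 55.5, 42.0 and 71.8%. A limit of fewer than 10 peaks per gene gave 36.8% in the first intron, 46.1% with a neighbour and 71.9% of minimum width, and fewer than 25 gave 53.6 and 68.4% for the last 2. Members wider than the minimum numbered 4525, with 43.7% in the first intron, a median GC content of 57.0%, 61.8% with a neighbour, a host-gene share of 75.7% and, by construction, 0% of minimum width. A reciprocal overlap of 50% gave 68.9% of minimum width, and requiring no ZMYND8 midpoint within 1 kb gave 48.9% with a neighbour and 70.9% of minimum width. The median GC content was 50.6% in 500 bp in place of 200 bp. With the members that hold Alu letters left out, an alternative chosen after seeing the data, the median was 57.0% and 52.0% of the remaining members had a neighbour. Apart from the window and the widths, which act by their construction, the cause was not tested. No paired analysis was possible because neither list says which sample a peak came from, which also prevents leaving a replicate out.

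The lists record no reads, and most members share the minimum width. The meaning of the number in each peak's name is not given in the sources used here. The members were therefore not ranked by strength. Exact letters miss changed copies of a motif or repeat.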

Other observations

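The members were spread unevenly over the chromosomes. Chromosomes 22, 17 and 19 held 41.3, 36.8 and 35.2 members per 1000 eligible positions (95% counting intervals 37.8 to 45.1, 34.5 to 39.1 and 32.6 to 37.9), and chromosome X held 4.28 (3.69 to 4.93). Chromosome 22 held 503 members against 537 that the GC content of its eligible positions would give at the density of all members, and chromosome 19 held 691 against 882. Chromosome X held 189 against 439, the lowest ratio of all at 0.430, and chromosome 6 held 888 against 584, the highest at 1.52. Copy number, which varies between chromosomes in HEK293 cells, was not measured here, and its part in these values was not tested.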
